A study of Homo sapiens with 18 samples.

Results

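The genes described here are 10 direct transcriptional targets of the co-activators YAP and TAZ: CCN1, CCN2, ANKRD1, AMOTL2, AXL, NT5E, CCDC80, AJUBA, CRIM1 and F3. They were chosen by symbol, older aliases such as CYR61 (CCN1) and CTGF (CCN2) included, with earlier results of these data known. Each was read by the probe set that the platform annotation assigns to that symbol alone. All 10 of 10 were found, each with 1 probe set, among 18404 genes measured. The cells were MCF10A, an established, non-tumorigenic human breast epithelial line, grown in an estrogen-containing medium, and each group held 3 arrays of 18. All cells carried a pLKO lentiviral hairpin, delivered at a multiplicity of infection of 5 and selected for 4 days in puromycin at 1.5 µg/ml. After at least 7 days of recovery they received a cDNA vector by transient lipid transfection, and RNA was collected 5 days later. With the non-targeting hairpin shNT, cells received ctrl cDNA (the control arrays), YAP/TAZ cDNA, ESR1 cDNA, or YAP/TAZ and ESR1 cDNA together (the double-cDNA arrays). The knockdown cells, with shLATS1B (against LATS1) or shLATS1+2 (named for LATS1 and LATS2), received ctrl cDNA. The labels do not say whether YAP and TAZ were on 1 vector or how many cells took up a cDNA, and nothing states that replicate arrays stem from separate cultures. P-values therefore cover the spread of these arrays alone, which may be technical.

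YAP (gene YAP1) and TAZ (gene WWTR1) do not bind DNA themselves. They act mainly through the TEAD transcription factors, often at elements that also hold AP-1 factors, and the Hippo kinases LATS1 and LATS2 restrain both proteins by phosphorylation. In mammary epithelium, active YAP and TAZ are known to raise secreted matrix-associated proteins, cell-surface proteins and feedback regulators of the Hippo pathway itself, and ESR1 encodes estrogen receptor alpha.

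Values are log2 intensities, and a change is a difference of group means on the log2 scale with its standard error. Genes count as changed, or as having passed, where the adjusted p was under 0.05 (limma, Benjamini-Hochberg over 18404 genes). LATS1 was lower in the knockdown arrays, with means of 7.66 (shLATS1B) and 7.76 (shLATS1+2) against 8.86 in the control arrays, while LATS2 was not lower with shLATS1+2 (7.82 against 7.73). Neither YAP1 (10.79 against 10.84) nor WWTR1 (9.44 against 9.57) was higher with the YAP/TAZ cDNA label, and ESR1 was higher in the ESR1 arrays (6.47 against 5.52) but also with shLATS1B (6.37) and shLATS1+2 (6.40). Group names are therefore those of the labels throughout. The first principal component (47.3% of the variance) set the control, YAP/TAZ and ESR1 arrays apart from the double-cDNA and knockdown arrays. The labels name no batch, so for comparisons that cross this line batch and group cannot be told apart. The mean over the 9 interferon genes of a fixed list was 6.13 to 6.45 in the control arrays and 8.51 to 9.66 in the other 15 arrays. In each comparison with the control arrays 8 of the 9 were called higher (3.16% to 14.7% of all genes). MX1 was dim, with group means of 5.16 to 5.23. The mean over the 8 epithelial markers measured was 10.83 to 11.18 per array, with group means of single markers from 7.85 to 12.69. None lay in the dimmest 30% of genes, but they moved in both directions. In each knockdown 3 were higher and 4 lower (24.0% and 24.8% of all genes called), and with both cDNAs 4 and 4 (29.4%). With YAP/TAZ cDNA 0 were higher and 1 lower (7.00%), and with ESR1 cDNA 1 and 1 (18.9%). With shLATS1B the keratin KRT14 fell by 2.57 and KRT8 rose by 1.10. By contrast, 6 of 10 fibroblast, 6 of 8 endothelial and 5 of 9 leukocyte markers lay in the dimmest 30% of genes. The mean level of the fibroblast list was 5.27 to 5.46 in the control arrays, 5.20 to 5.30 with a single cDNA and 4.99 to 5.03 in the other groups. With shLATS1B 2 of its 10 genes were called (24.0% of all genes), DCN (-2.15) and FAP (-1.45), and the list median was 0.00186. The leukocyte list had mean levels of 5.49 to 5.53, 5.52 to 5.60 and 5.64 to 5.77. With shLATS1B 1 of its 9 genes was called (24.0% of all genes), CD14 (1.82), and the list median was -0.0228. MX1, KRT14, KRT8, DCN, FAP and CD14 were singled out after their values were seen. The part of these marker levels in the results was not tested. By the SD of deviations from the group means, ESR1 array 1 (0.153) and shLATS1+2 array 3 (0.108) deviated most. Control array 1 (0.104) and ESR1 array 3 (0.103) came close to the latter. By mean correlation within the group the ESR1 arrays were lowest (0.9934, 0.9957 and 0.9956), and shLATS1+2 array 3 had 0.9967. Without ESR1 array 1 and shLATS1+2 array 3, 9 targets were called in the ESR1 comparison. The count over all 18404 genes there went from 3487 (18.9%) to 5776. With shLATS1+2 6 targets were called, where 24.8% of all genes were called with all arrays.

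CCN2, ANKRD1 and F3 are shown here by the 250 bases before their start site, because each was high with either cDNA and not with both, and because these promoters hold more than 1 of the sequence words known for TEAD (GGAATG, on either strand) and AP-1 (TGANTCA, which reads alike on both strands). The sequences are from RefSeq (GRCh38.p14), all on the minus strand, at chr6:131951373-131951622, chr10:90921088-90921337 and chr1:94541760-94542009, written 5′ to 3′ with these words in capitals.
CCN2: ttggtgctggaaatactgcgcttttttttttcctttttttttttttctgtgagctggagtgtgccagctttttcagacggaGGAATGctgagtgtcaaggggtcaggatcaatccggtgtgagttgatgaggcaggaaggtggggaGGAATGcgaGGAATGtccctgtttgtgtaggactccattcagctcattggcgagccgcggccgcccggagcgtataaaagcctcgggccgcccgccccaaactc
ANKRD1: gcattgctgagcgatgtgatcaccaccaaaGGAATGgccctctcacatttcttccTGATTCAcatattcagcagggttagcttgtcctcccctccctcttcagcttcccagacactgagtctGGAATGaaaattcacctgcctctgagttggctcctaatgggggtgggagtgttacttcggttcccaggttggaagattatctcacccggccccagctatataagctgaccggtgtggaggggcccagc
F3: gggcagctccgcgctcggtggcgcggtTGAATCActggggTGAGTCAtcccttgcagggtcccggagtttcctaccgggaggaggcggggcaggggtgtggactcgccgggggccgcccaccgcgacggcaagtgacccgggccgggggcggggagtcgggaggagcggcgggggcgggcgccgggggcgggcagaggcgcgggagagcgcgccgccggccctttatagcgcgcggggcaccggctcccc
The CCN2 window held GGAATG 3 times, the first base of each at -169, -104 and -95 from the start site, and no TGANTCA. In ANKRD1 there were 2 copies of GGAATG, at -220 and -128, and 1 TGANTCA at -195 between them. The F3 window held no GGAATG and 2 copies of TGANTCA, at -223 and -210. Of 35116 annotated starts of all genes, 11.9% had at least 1 GGAATG in the same window, 0.94% had 2 or more and 0.0826% had 3 or more, while 6.57% had a TGANTCA and 0.402% had 2 or more. The table covered 8 of the 10 genes with 11 starts, CCN1 and CRIM1 not among them. GGAATG also occurred at 1 of the 2 listed starts of AMOTL2 (-69), AJUBA (-59) and AXL (-212), and neither word occurred in the windows of CCDC80 and NT5E. In all, GGAATG occurred at 5 of the 11 starts and TGANTCA at 2. The 3 promoters shown were picked partly for these words, so their counts are no test against the shares of all starts. The words do not overlap one another in these windows, and a match describes the letters only.

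**Figure D1:**
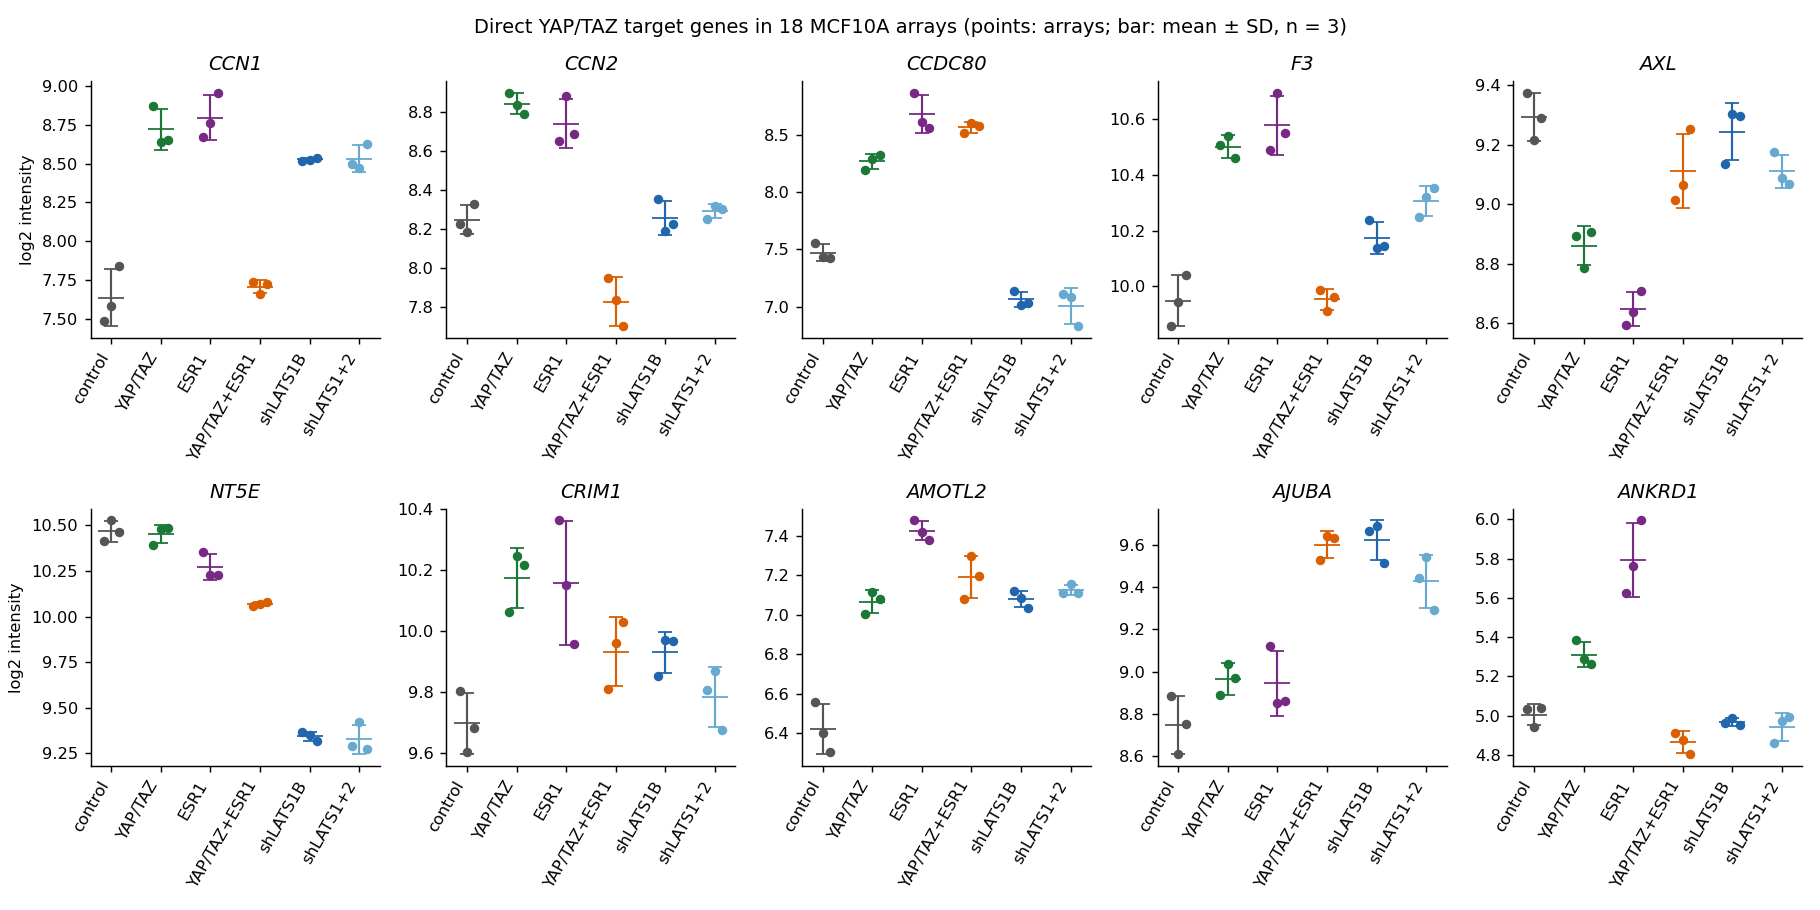
Log2 intensity (vertical axis, a separate scale for each gene) of the 10 genes in the 6 groups of 3 arrays; points are arrays, and bars give the mean and SD. CCN1, CCN2, F3 and ANKRD1 are high in the YAP/TAZ and ESR1 arrays and at or below the control arrays with both cDNAs, while NT5E and AJUBA part the 9 control, YAP/TAZ and ESR1 arrays from the other 9.

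With YAP/TAZ cDNA, 8 of the 10 targets changed against the control arrays, where 7.00% of all genes did. CCN1, CCDC80, AMOTL2, CCN2, F3, CRIM1 and ANKRD1 rose, between 1.24-fold and 2.12-fold (3.16% of all genes rose), and AXL fell (3.84% of all genes fell). NT5E and AJUBA did not pass. The median change of the 10 was 0.52, against -0.000887 over all genes. In 9 of 10 the 3 arrays of each group did not overlap, which held for 22.8% of all genes.

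With ESR1 cDNA alone, 9 of the 10 targets changed (18.9% of all genes), 7 higher (7.04%) and 2 lower (11.9%), with a median change of 0.56 against 0.00207 over all genes, and groups did not overlap in 9 (24.3% of all genes). CCDC80 (2.32-fold), CCN1 (2.23-fold) and AMOTL2 (2.01-fold) had the largest rises, AXL (1.57-fold) and NT5E (1.15-fold) fell, and AJUBA did not pass. This comparison and the YAP/TAZ comparison use the same 3 control arrays, as do those of the double-cDNA and knockdown arrays, so a high or low control value enters all of them.

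With both cDNAs together, 6 of 10 targets changed (29.4% of all genes), of which AMOTL2, CCDC80 and AJUBA rose and CCN2, NT5E and AXL fell (14.7% of all genes in each direction). The median change was 0.0384, against -0.00433 over all genes, and groups did not overlap in 7 (38.9% of all genes). CCN1, F3, ANKRD1 and CRIM1 did not pass, with 95% intervals of the change of -0.12 to 0.26, -0.12 to 0.13, -0.29 to 0.01 and 0.04 to 0.43. Against the YAP/TAZ arrays directly, 8 of 10 differed (22.7% of all genes), 3 higher (12.3%) and 5 lower (10.5%) with both cDNAs, and groups did not overlap in 9 (38.7% of all genes). Against the ESR1 arrays 8 of 10 differed (29.1% of all genes), 2 higher (16.2%) and 6 lower (12.9%), and groups did not overlap in 8 (33.0%).

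Both knockdowns changed 6 of 10 targets, where 24.0% (shLATS1B) and 24.8% (shLATS1+2) of all genes changed. In each, CCN1, AJUBA, AMOTL2 and F3 rose (12.4% and 11.8% of all genes) and NT5E and CCDC80 fell (11.6% and 13.0%), and groups did not overlap in 7 (38.4% and 34.6% of all genes). Median changes of the 10 were 0.12 and 0.0649, against -0.00592 and -0.00796 over all genes. Between the knockdowns, 0 of 10 targets differed (limma; 0.321% of all genes did, 0.141% higher and 0.179% lower with shLATS1+2). The smallest adjusted p of the 10 were 0.406 for F3 and 0.407 for AJUBA (limma).

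With a change of at least 1.5-fold also required, 4 targets remained with YAP/TAZ cDNA (1.04% of all genes), 6 with ESR1 cDNA (2.42%), 3 with both (7.25%), 4 with shLATS1B (5.03%) and 4 with shLATS1+2 (5.11%). Between both cDNAs and YAP/TAZ cDNA 3 were left (4.58%), between both and ESR1 cDNA 5 (6.11%), and between the knockdowns 0 (0.109%). For the orders of group means given with each gene, the share of all genes that differed was 0.603% between ESR1 and YAP/TAZ arrays, 18.8% and 18.9% between shLATS1B or shLATS1+2 and YAP/TAZ arrays, 25.3% and 19.4% between them and ESR1 arrays, and 11.1% and 19.8% between them and double-cDNA arrays.

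**Figure D2:**
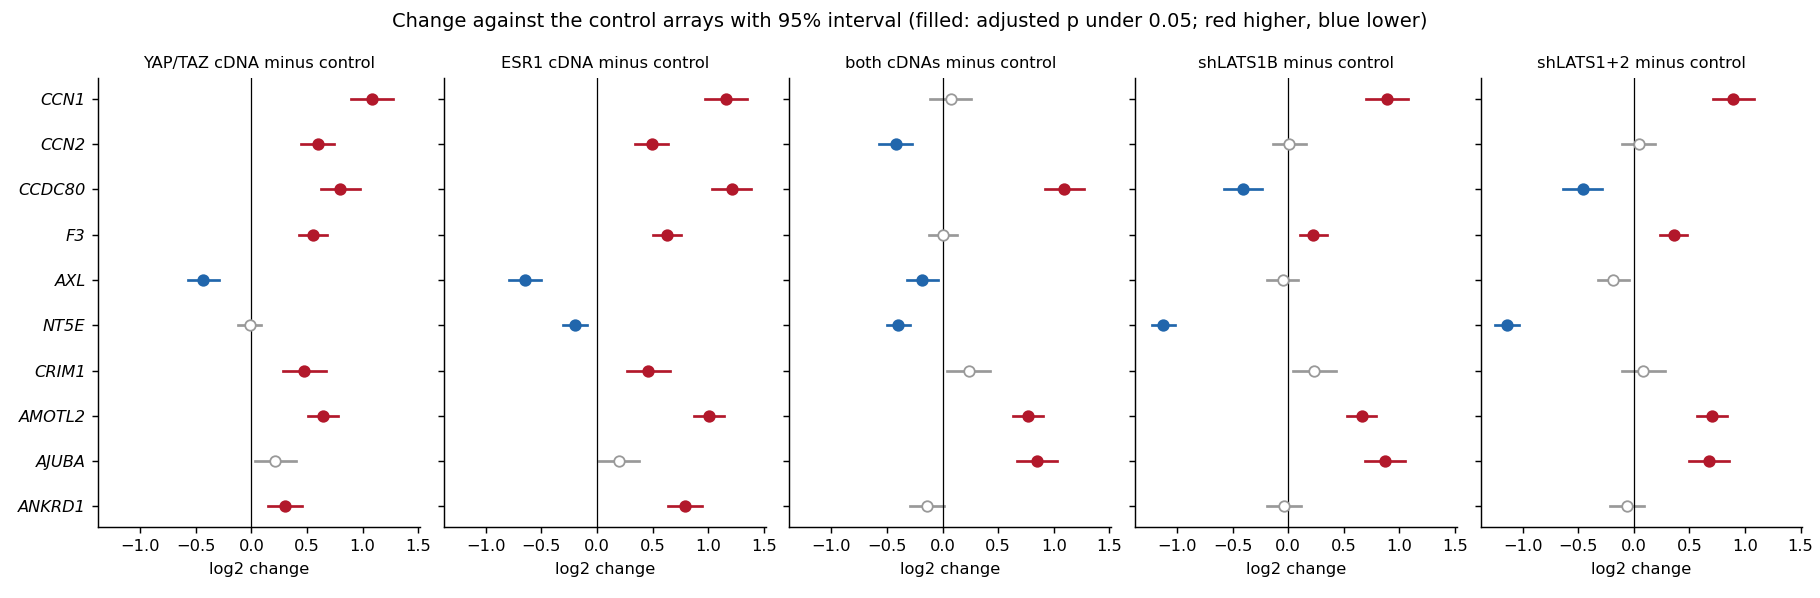
Log2 change against the 3 control arrays (horizontal axis) with its 95% interval, not adjusted for the number of genes, for the 10 genes in 5 comparisons of 3 against 3 arrays. Filled points passed an adjusted p of 0.05, red for higher and blue for lower; the 2 single-cDNA panels have 7 red points each, and the knockdown panels have 4 red and 2 blue points each.

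CCN1 encodes a secreted matricellular protein that binds integrins. Its control arrays read 7.49, 7.58 and 7.84, the YAP/TAZ arrays 8.87, 8.64 and 8.65, and the ESR1 arrays 8.67, 8.76 and 8.96. The double-cDNA arrays read 7.74, 7.66 and 7.72, the shLATS1B arrays 8.52, 8.52 and 8.54, and the shLATS1+2 arrays 8.49, 8.47 and 8.63. The double-cDNA arrays thus lay within the control range, and the other 12 arrays lay above every control array. CCN1 rose 2.12-fold with YAP/TAZ cDNA (1.08 ± 0.088 SE; limma, adjusted p = 4.34e-07), 2.23-fold with ESR1 cDNA (1.16 ± 0.088; adjusted p = 1.05e-07), and 1.85-fold and 1.86-fold with shLATS1B and shLATS1+2 (0.89 and 0.90 ± 0.088). In the order of group means, from ESR1 through YAP/TAZ, shLATS1+2 and shLATS1B to double-cDNA and control, the shLATS1B and double-cDNA groups were the only neighbours that differed.

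CCN2, from the same family of matricellular proteins, rose with each single cDNA and passed in neither knockdown. The control arrays read 8.23, 8.19 and 8.33, the YAP/TAZ arrays 8.90, 8.84 and 8.79, and the ESR1 arrays 8.65, 8.88 and 8.69. With both cDNAs the values were 7.95, 7.83 and 7.70, all below the control arrays. The shLATS1B arrays (8.36, 8.19 and 8.23) and the shLATS1+2 arrays (8.25, 8.32 and 8.30) overlapped the control arrays. CCN2 rose 1.51-fold with YAP/TAZ cDNA (0.60 ± 0.071; limma, adjusted p = 3.76e-05) and 1.41-fold with ESR1 cDNA (0.49 ± 0.071), and fell 1.34-fold with both (-0.42 ± 0.071; adjusted p = 0.000189). Neither knockdown passed, with changes of 0.00949 (95% interval -0.14 to 0.16) and 0.0433 (-0.11 to 0.19). From highest to lowest the groups were YAP/TAZ, ESR1, shLATS1+2, shLATS1B, control and double-cDNA; ESR1 differed from shLATS1+2 and control from double-cDNA, and the other neighbours did not differ beyond their spread.

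CCDC80 encodes a secreted protein of the extracellular matrix. It had the widest range of group means among the 10 genes, 1.67, at percentile 99.1 of all genes. Control arrays read 7.56, 7.43 and 7.42, YAP/TAZ arrays 8.20, 8.29 and 8.32, ESR1 arrays 8.87, 8.61 and 8.56, and double-cDNA arrays 8.52, 8.61 and 8.57. The shLATS1B arrays read 7.14, 7.02 and 7.03, and the shLATS1+2 arrays 7.11, 7.09 and 6.83. All 9 cDNA arrays were above the control arrays and all 6 knockdown arrays were below them. CCDC80 rose 1.74-fold with YAP/TAZ cDNA (0.80 ± 0.082), 2.32-fold with ESR1 cDNA (1.21 ± 0.082) and 2.14-fold with both (1.10 ± 0.082; limma, adjusted p = 2.27e-08), and fell 1.33-fold with shLATS1B (-0.41 ± 0.082; adjusted p = 0.00125) and 1.38-fold with shLATS1+2 (-0.46 ± 0.082). Between double-cDNA and YAP/TAZ arrays it was 0.30 higher (adjusted p = 0.0139), a call lost without YAP/TAZ array 1 (0.26, adjusted p = 0.0692) or double-cDNA array 2 (0.27, adjusted p = 0.0583). In the order ESR1, double-cDNA, YAP/TAZ, control, shLATS1B and shLATS1+2, neither the ESR1 and double-cDNA groups nor the knockdowns differed.

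At the cell surface, F3 encodes tissue factor, the receptor that starts the extrinsic coagulation cascade. Control arrays read 9.86, 9.94 and 10.04, YAP/TAZ arrays 10.51, 10.54 and 10.46, and ESR1 arrays 10.49, 10.70 and 10.55. The double-cDNA arrays (9.99, 9.91 and 9.96) lay within the control range, while the shLATS1B (10.24, 10.14 and 10.15) and shLATS1+2 arrays (10.25, 10.32 and 10.35) lay between control and single-cDNA arrays with no overlap. F3 rose 1.47-fold with YAP/TAZ cDNA (0.55 ± 0.058; limma, adjusted p = 8.75e-06), 1.55-fold with ESR1 cDNA (0.63 ± 0.058), 1.17-fold with shLATS1B (0.23 ± 0.058; adjusted p = 0.00811) and 1.28-fold with shLATS1+2 (0.36 ± 0.058). With both cDNAs its change was 0.00527 ± 0.058 (adjusted p = 0.967). F3 was also the 1 target whose knockdown groups did not overlap (25.2% of all genes), 0.13 higher with shLATS1+2, which did not pass (adjusted p = 0.406). Ordered from ESR1 through YAP/TAZ, shLATS1+2, shLATS1B and double-cDNA to control, the YAP/TAZ and shLATS1+2 groups differed, as did shLATS1B and double-cDNA.

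AXL, a receptor tyrosine kinase for the ligand GAS6, was lower, not higher, in the single-cDNA arrays. Control arrays read 9.38, 9.22 and 9.29, YAP/TAZ arrays 8.89, 8.79 and 8.91, and ESR1 arrays 8.60, 8.64 and 8.71. Double-cDNA arrays read 9.02, 9.07 and 9.25, shLATS1B arrays 9.13, 9.30 and 9.30, and shLATS1+2 arrays 9.18, 9.09 and 9.07. The 6 single-cDNA arrays were below all of the other 12. AXL fell 1.35-fold with YAP/TAZ cDNA (-0.43 ± 0.067; limma, adjusted p = 0.000515) and 1.57-fold with ESR1 cDNA (-0.65 ± 0.067; adjusted p = 4.16e-06). With both cDNAs it fell by 0.18 ± 0.067, at the edge of the threshold (adjusted p = 0.0499). This call was lost in 20 of 28 alternatives, with adjusted p up to 0.203 (without double-cDNA array 1), and its groups overlapped. The double-cDNA arrays were 0.46 above the ESR1 arrays (adjusted p = 6.5e-05) and 0.25 above the YAP/TAZ arrays (adjusted p = 0.0114), the second call being lost without YAP/TAZ array 2 (0.21, adjusted p = 0.0583) or double-cDNA array 3 (0.18, adjusted p = 0.0753). Neither shLATS1B (-0.0491, adjusted p = 0.689) nor shLATS1+2 (-0.18, adjusted p = 0.0561) passed. The shLATS1+2 value passed without control array 2 (-0.22, adjusted p = 0.0423) and, through the shared spread, without ESR1 array 1 (0.0496), double-cDNA array 1 (0.0489) or 3 (0.0324) or shLATS1B array 1 (0.0460). With arrays centred on their medians the shLATS1+2 value passed as well (-0.24; limma, adjusted p = 0.0154). Of neighbours in the order control, shLATS1B, double-cDNA, shLATS1+2, YAP/TAZ and ESR1, shLATS1+2 and YAP/TAZ differed.

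NT5E encodes CD73, the surface enzyme that turns AMP into adenosine. Control arrays read 10.41, 10.53 and 10.46 and YAP/TAZ arrays 10.39, 10.48 and 10.49, which overlapped. ESR1 arrays read 10.35, 10.23 and 10.23, double-cDNA arrays 10.06, 10.07 and 10.08, shLATS1B arrays 9.37, 9.35 and 9.32, and shLATS1+2 arrays 9.29, 9.42 and 9.27. The knockdown arrays were below all 12 others. NT5E fell 2.18-fold with shLATS1B (-1.12 ± 0.050; limma, adjusted p = 5.7e-11) and 2.20-fold with shLATS1+2 (-1.14 ± 0.050; adjusted p = 5.44e-11), the largest changes among the 10 genes in these comparisons. It fell 1.32-fold with both cDNAs (-0.40 ± 0.050; adjusted p = 9.41e-06). With ESR1 cDNA it fell 1.15-fold (-0.20 ± 0.050; adjusted p = 0.0106), a call lost without control array 2 (-0.17, adjusted p = 0.0554), ESR1 array 2 (-0.18, adjusted p = 0.0524) or ESR1 array 3 (-0.18, adjusted p = 0.0532) and in a fit of those groups alone (adjusted p = 0.123). YAP/TAZ cDNA gave -0.0148 (95% interval -0.12 to 0.09). In the order control, YAP/TAZ, ESR1, double-cDNA, shLATS1B and shLATS1+2, ESR1 differed from double-cDNA and double-cDNA from shLATS1B.

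CRIM1 encodes a transmembrane protein that binds bone morphogenetic proteins, and it had the smallest range of group means of the 10 genes (0.48, percentile 79.8 of all genes). Control arrays lay between 9.61 and 9.80, YAP/TAZ arrays between 10.06 and 10.25, and ESR1 arrays between 9.96 and 10.36. Double-cDNA arrays lay between 9.81 and 10.03, shLATS1B arrays between 9.85 and 9.97, and shLATS1+2 arrays, which overlapped the control arrays, between 9.67 and 9.87. CRIM1 rose 1.39-fold with YAP/TAZ cDNA (0.48 ± 0.091; limma, adjusted p = 0.00324) and 1.38-fold with ESR1 cDNA (0.46 ± 0.091; adjusted p = 0.00188), the latter with adjusted p = 0.0548 in a fit of those groups alone. It did not pass with both cDNAs (0.24, adjusted p = 0.0644), shLATS1B (0.23, adjusted p = 0.0795) or shLATS1+2 (0.0865, adjusted p = 0.591). The double-cDNA value passed without control array 1 (0.29, adjusted p = 0.0404), ESR1 array 1 (0.0245), ESR1 array 3 (0.0331) or double-cDNA array 1 (0.30, adjusted p = 0.0340), and the shLATS1B value without ESR1 array 1 (0.0310) or ESR1 array 3 (0.0420). The differences of the double-cDNA arrays did not pass against the YAP/TAZ arrays (-0.24, adjusted p = 0.0704; 0.0261 without ESR1 array 1 and 0.0359 without ESR1 array 3) or against the ESR1 arrays (-0.22, adjusted p = 0.0785; -0.32 and 0.0146 without ESR1 array 3). With quantile normalization CRIM1 passed with both cDNAs (0.28; limma, adjusted p = 0.0201) and shLATS1B (0.27, adjusted p = 0.0313). The difference from the ESR1 arrays passed there too (-0.25, adjusted p = 0.0365). Median centring brought the difference from the YAP/TAZ arrays to -0.28 (adjusted p = 0.0315). In fits of the compared groups alone that difference (0.0320) and the shLATS1B value (0.0267) passed. No neighbours in the CRIM1 order of group means, YAP/TAZ, ESR1, double-cDNA, shLATS1B, shLATS1+2 and control, differed beyond their spread.

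Among the intracellular regulators, AMOTL2 encodes an angiomotin-family scaffold that binds YAP and holds it out of the nucleus. It was the 1 target that rose in every group against the control arrays. Control arrays read 6.56, 6.40 and 6.31, YAP/TAZ arrays 7.00, 7.12 and 7.08, ESR1 arrays 7.48, 7.42 and 7.38, and double-cDNA arrays 7.08, 7.30 and 7.20. The shLATS1B arrays read 7.12, 7.08 and 7.04, and the shLATS1+2 arrays 7.11, 7.15 and 7.11. All 15 arrays were above the highest control array. The rises were 1.57-fold with YAP/TAZ cDNA (0.65 ± 0.063; limma, adjusted p = 3.88e-06), 2.01-fold with ESR1 cDNA (1.01 ± 0.063; adjusted p = 9.31e-09), 1.71-fold with both (0.77 ± 0.063), 1.58-fold with shLATS1B (0.66 ± 0.063) and 1.63-fold with shLATS1+2 (0.71 ± 0.063). The ESR1 arrays also exceeded the double-cDNA arrays by 0.24 (adjusted p = 0.00917, and 0.0560 in a fit of those groups alone). In the order ESR1, double-cDNA, shLATS1+2, shLATS1B, YAP/TAZ and control, no neighbours from double-cDNA to YAP/TAZ differed.

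AJUBA encodes a LIM-domain protein that binds LATS kinases and limits their activity. Control arrays read 8.88, 8.61 and 8.75, YAP/TAZ arrays 8.89, 9.04 and 8.97, and ESR1 arrays 9.12, 8.85 and 8.86. Double-cDNA arrays read 9.53, 9.64 and 9.63, shLATS1B arrays 9.66, 9.69 and 9.51, and shLATS1+2 arrays 9.44, 9.54 and 9.29. The last 9 arrays were all above the first 9. AJUBA rose 1.80-fold with both cDNAs (0.85 ± 0.085; limma, adjusted p = 7.76e-07), 1.83-fold with shLATS1B (0.87 ± 0.085; adjusted p = 8.2e-07) and 1.60-fold with shLATS1+2 (0.68 ± 0.085; adjusted p = 1.37e-05). It passed with neither YAP/TAZ cDNA (0.22, adjusted p = 0.173) nor ESR1 cDNA (0.20, adjusted p = 0.126). With quantile normalization the ESR1 value passed (0.27; limma, adjusted p = 0.0258). In the order shLATS1B, double-cDNA, shLATS1+2, YAP/TAZ, ESR1 and control, shLATS1+2 and YAP/TAZ were the only neighbours that differed. AJUBA and NT5E were the 2 of 10 targets whose 9 control, YAP/TAZ and ESR1 arrays did not overlap the other 9 arrays, as for 7.37% of all genes. For NT5E the largest step between neighbouring groups, 0.72 from double-cDNA to shLATS1B arrays, lay within 1 side of that division.

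ANKRD1 encodes an ankyrin-repeat protein that acts as a transcriptional cofactor, and was the dimmest of these probe sets relative to all genes (percentile 28.2). Its group means in the control, double-cDNA and knockdown arrays lay below 5.208, the percentile 30 of gene means, so the folds given for it may understate the change. Control arrays read 5.03, 4.94 and 5.04, YAP/TAZ arrays 5.38, 5.29 and 5.26, ESR1 arrays 5.62, 5.76 and 5.99, and double-cDNA arrays 4.91, 4.87 and 4.80. The shLATS1B (4.96, 4.99 and 4.95) and shLATS1+2 arrays (4.86, 4.97 and 4.99) overlapped the control arrays, which the 6 single-cDNA arrays exceeded. ANKRD1 rose 1.73-fold with ESR1 cDNA (0.79 ± 0.072; limma, adjusted p = 1.01e-06) and 1.24-fold with YAP/TAZ cDNA (0.31 ± 0.072; adjusted p = 0.014). Leaving out control array 2 ended the latter call (0.28, adjusted p = 0.0720), as did leaving out YAP/TAZ array 1 (0.27, adjusted p = 0.0747). The ESR1 arrays were higher than the YAP/TAZ arrays by 0.48 (adjusted p = 0.00414), a pair of groups that differed in 0.603% of all genes. Changes of -0.0364 with shLATS1B, -0.0629 with shLATS1+2 and -0.14 with both cDNAs (adjusted p = 0.175) did not pass. With arrays centred on their medians the value with both cDNAs passed (-0.21; limma, adjusted p = 0.0281). Among the groups below YAP/TAZ, in the order control, shLATS1B, shLATS1+2 and double-cDNA, no neighbours differed, while YAP/TAZ differed from control.

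The change labelled YAP/TAZ cDNA was then compared with and without ESR1 cDNA, by the interaction: double-cDNA minus ESR1 arrays, less YAP/TAZ minus control arrays. It passed for 9 of 10 targets, where 19.1% of all genes passed, with 7 negative (7.68% of all genes) and 2 positive (11.4%). With at least 1.5-fold required, 8 passed (6.94% of all genes). CCN1 had the largest value: YAP/TAZ cDNA went with a change of 1.08 ± 0.088 without ESR1 cDNA and -1.09 ± 0.088 with it, an interaction of -2.17 ± 0.12 (limma, adjusted p = 3.14e-09). For CCN2 these changes were 0.60 and -0.91 (interaction -1.51 ± 0.10; adjusted p = 2.06e-08), for ANKRD1 0.31 and -0.93 (-1.24 ± 0.10; adjusted p = 2.82e-07) and for F3 0.55 and -0.63 (-1.18 ± 0.082; adjusted p = 3.72e-08). In these 4 genes the sign turned and each change passed. AMOTL2 (0.65 and -0.24, interaction -0.88 ± 0.089) turned too, whereas CCDC80 (0.80 and -0.12) and CRIM1 (0.48 and -0.22) rose without ESR1 cDNA and did not pass with it. AXL ran the other way, -0.43 without and 0.46 with ESR1 cDNA (interaction 0.90 ± 0.094; adjusted p = 4.53e-06), and AJUBA passed with ESR1 cDNA (0.65) but not without it (0.22). The AJUBA interaction (0.44 ± 0.12; adjusted p = 0.0182) was lost without control array 1 (0.37, adjusted p = 0.0527), YAP/TAZ array 1 (0.40, adjusted p = 0.0515), ESR1 array 2 (0.39, adjusted p = 0.0533) or ESR1 array 3 (0.39, adjusted p = 0.0520). NT5E did not pass (-0.19 ± 0.071; limma, adjusted p = 0.0767), but passed with quantile normalization (-0.23, adjusted p = 0.0165). Of the 5 targeted or transfected genes, 3 were called higher and 1 lower in the double-cDNA than in the ESR1 arrays (16.2% and 12.9% of all genes). ESR1 itself was lower (6.03 against 6.47). WWTR1 (9.99 against 9.21), LATS1 (9.33 against 8.75) and YAP1 (10.88 against 10.56) were higher. The control means of these 3 were 9.57, 8.86 and 10.84. The part of the targeted genes in the interaction was not tested. The double-cDNA arrays lie on the other side of the principal component from the 3 groups they are set against here.

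**Figure D3:**
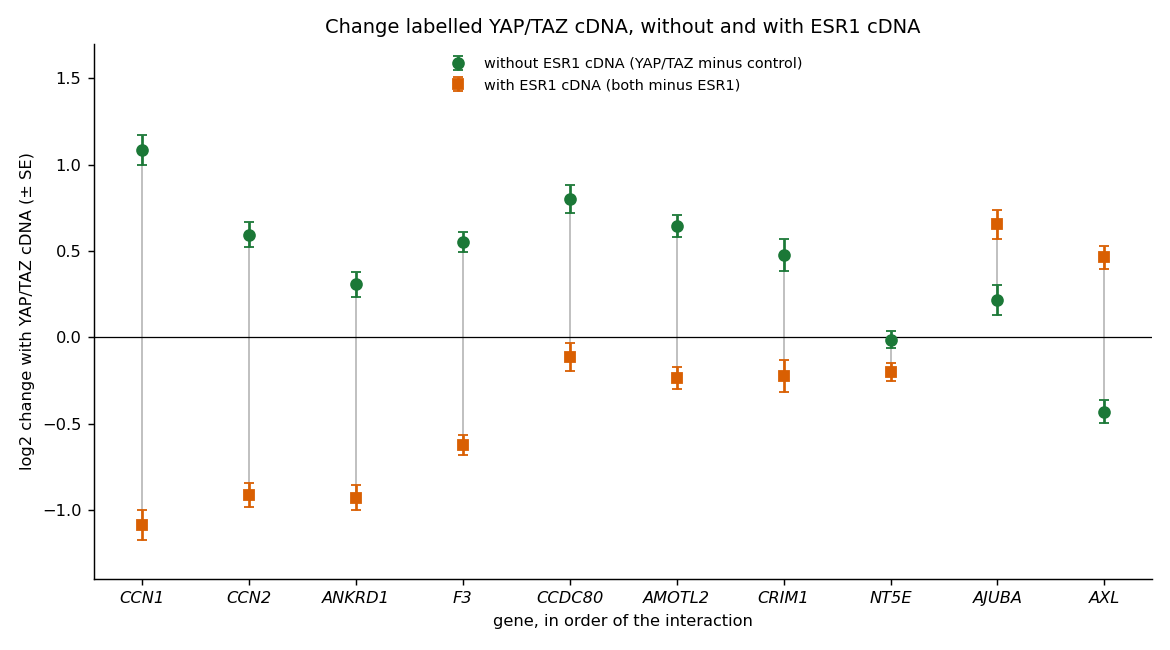
Log2 change with YAP/TAZ cDNA (vertical axis, ± SE) for the 10 genes, ordered by interaction, without ESR1 cDNA (green circles, YAP/TAZ minus control arrays) and with it (orange squares, double-cDNA minus ESR1 arrays). CCN1 goes from 1.08 to -1.09, and AXL from -0.43 to 0.46.

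A second list of 24 genes held other described YAP/TAZ targets, of which 22 were analysed here. This list includes LATS2, also counted among the targeted genes, and TEAD1, also counted among the TEAD genes. Like the 10 targets, it was chosen with earlier results of these data known, so the lists are set side by side as a description only. With YAP/TAZ cDNA 3 of 22 rose and 0 fell (3.16% and 3.84% of all genes; median change 0.0717): the growth factor FGF2 by 1.65-fold (0.72 ± 0.049), the RNA-binding protein RBMS3 by 1.30-fold and the vasoactive peptide EDN1 by 1.29-fold (0.36 ± 0.089). With ESR1 cDNA 6 were higher and 1 lower (7.04% and 11.9% of all genes; median 0.0869), with FGF2 (1.68-fold), EDN1 (1.56-fold), the cytokine TGFB2 (1.36-fold) and the matricellular protein THBS1 (1.29-fold) as the largest rises. With both cDNAs 8 were higher and 6 lower (14.7% of all genes in each direction; median 0.0626). TGFB2 rose 3.53-fold (1.82 ± 0.093) and FGF2 2.23-fold (1.15 ± 0.049), while THBS1 fell 1.84-fold (-0.88 ± 0.072) and the secreted glycoprotein FSTL1 1.75-fold (-0.81 ± 0.071). In the interaction 2 were positive and 7 negative (11.4% and 7.68% of all genes), among the latter EDN1 (-1.54 ± 0.13), THBS1 (-1.45 ± 0.10) and BIRC5, an inhibitor of apoptosis (-0.56 ± 0.086), and TGFB2 was positive (1.11 ± 0.13). With shLATS1B 8 rose and 6 fell (12.4% and 11.6% of all genes; median 0.0628), and with shLATS1+2 5 rose and 8 fell (11.8% and 13.0%; median -0.0529). FGF2 (2.20-fold and 2.04-fold) and RBMS3 (1.53-fold and 1.74-fold) rose in both knockdowns, and THBS1 (2.22-fold and 2.13-fold) and FSTL1 (1.75-fold and 1.69-fold) fell. Against the YAP/TAZ arrays the double-cDNA arrays had 6 higher and 6 lower (12.3% and 10.5% of all genes), and against the ESR1 arrays 7 and 7 (16.2% and 12.9%).

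**Figure D4:**
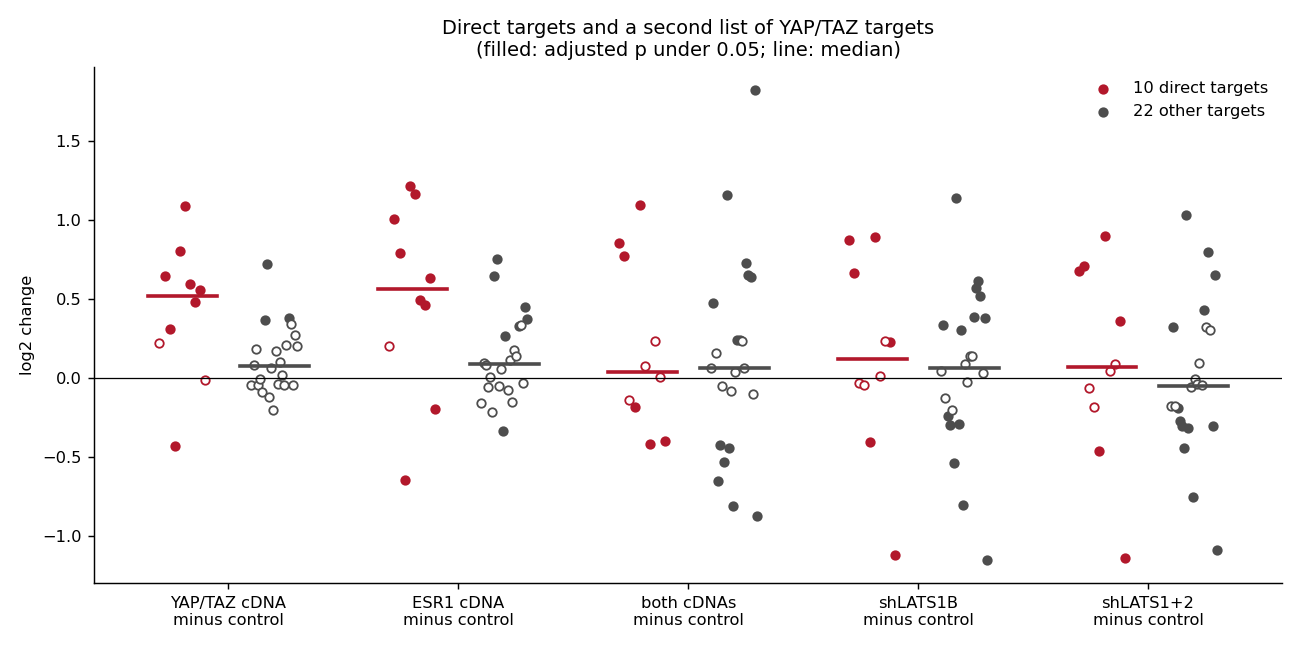
Log2 change against the control arrays (vertical axis) of the 10 direct targets (red) and the 22 other listed targets (grey) in 5 comparisons; filled points passed an adjusted p of 0.05 and lines mark medians. In the YAP/TAZ and ESR1 panels the median of the 10 is 0.52 and 0.56, and that of the 22 is 0.0717 and 0.0869. Both lists were chosen with earlier results of these data known, and the difference between them was not tested.

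The genes outside the list whose profile over the 18 arrays was most like each target were found by Pearson's r, as a description; the arrays share the division on the first principal component. TPM1, which encodes a tropomyosin, was nearest to both CCN1 (r = 0.917) and F3 (r = 0.895). PRKAG2 was nearest to CCN2 (r = 0.923), GJA5 to ANKRD1 (r = 0.938), OAS2, an interferon-induced gene, to AMOTL2 (r = 0.932) and CD99 to AXL (r = 0.931). EPB41L4A was nearest to CCDC80 (r = 0.978), DCTD to NT5E (r = 0.979), the collagen receptor DDR1 to AJUBA (r = 0.981) and JADE2 to CRIM1 (r = 0.936).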

How the data were processed

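The 18 arrays are Affymetrix whole-transcript arrays, hybridised with cDNA made from 100 ng of total RNA, per the labels' protocols. The deposited table holds log2 values, 1 column per array and 1 row for each of 32321 probe sets. The R package affy is named for it in the submitters' processing notes; background correction, normalization and summary were not given in the sources used here. Medians per array were 5.494 to 5.619, and precision is limited by the number of arrays.

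Gene names came from the platform annotation (19158 probe sets with 1 symbol, 1388 with several, 11775 with none), with symbols updated through RefSeq (GRCh38.p14; 19128 matched), and the probe set with the highest mean was kept for each of 18404 genes. A mean per group was fitted over all 18 arrays (limma 3.58.1, R 4.3.3; 12 residual degrees of freedom, 3.94 added by moderation), and tests were two-sided. The fit was tested on simulated data with independent noise, which held no deviation shared across the genes of an array. Promoter words were searched in Python 3.11.15.

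All 10 targets were named, with the targeted genes, up to 4 called genes of the second list per comparison and 1 most similar gene each. The targets and lists were chosen with earlier results of these data known. Alternatives were quantile normalization, median centring, a replicate block, brighter genes only, other uses of probe sets, the compared groups alone, trended robust moderation, a fold threshold, and each array left out.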

Additional observations from a re-analysis of the deposited data

Results flagged for a closer look

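The change with YAP/TAZ cDNA differed with and without ESR1 cDNA, by the test of the interaction (limma, adjusted over 18404 genes), for 9 of the 10 targets. The values on the log2 scale were -2.17 for CCN1, -1.51 for CCN2, -1.24 for ANKRD1, -1.18 for F3, -0.92 for CCDC80 (adjusted p = 3.28e-05), -0.88 for AMOTL2 (adjusted p = 2.72e-06) and -0.70 for CRIM1 (adjusted p = 0.00106), and 0.90 for AXL and 0.44 for AJUBA. The same test passed for 19.1% of all genes.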

How the results depend on the processing

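Of 90 values (10 targets in 9 comparisons), 60 passed the threshold; 37 of these did so in every alternative that could be fitted (28, or 27 for ANKRD1) and 23 were lost in at least 1, while 8 of 30 that did not pass did so in at least 1. No value that passed turned its sign in any of them. A minimum of 1.5-fold cost most, 23 calls, and left 4 targets called with YAP/TAZ cDNA (1.04% of all genes), 3 with both cDNAs (7.25%), 3 between both and YAP/TAZ cDNA (4.58%) and 5 between both and ESR1 cDNA (6.11%). When single arrays were left out, YAP/TAZ cDNA had 7 to 8 targets called (7.00% of all genes with all arrays kept). For ESR1 cDNA the range was 8 to 9 (18.9%), and for the double-cDNA arrays 5 to 7 (29.4%). Either knockdown had 6 to 7 (24.0% for shLATS1B, 24.8% for shLATS1+2), and the interaction 8 to 9 (19.1%). These ranges are not set against a fixed background, because in some of these refits the count over all genes moved by more than 1.5 times, as listed below. ANKRD1 is not among the 12883 brighter genes, which hold 9 of the 10 targets. Same-numbered arrays of different groups did not deviate together (median correlation -0.0832, 5 of 18 arrays closest to their own number), and with the replicate number as a block 1 call was lost, AXL with both cDNAs (adjusted p = 0.0517). Counts over all genes moved by more than 1.5 times for ESR1 cDNA (3487, but 1126 in a fit of its groups alone, 5461 without ESR1 array 1 and 2299 without ESR1 array 2), for both against ESR1 cDNA (5359, but 3273 in its groups alone), for YAP/TAZ cDNA (1289, but 848 without YAP/TAZ array 2), for the interaction (3512, but 5607 without ESR1 array 1) and between the knockdowns (59, but 110 without ESR1 array 1 and 33, 35 and 37 without shLATS1B arrays 2 and 3 and shLATS1+2 array 3). The cause was not tested. Leaving out ESR1 array 1 and shLATS1+2 array 3 together was chosen after seeing the data; it gave 1945 genes with YAP/TAZ cDNA, 5776 with ESR1 cDNA and 5952 for the interaction. The 1.5-fold minimum left 926 and 940 genes in the knockdowns, 20 between them, 191, 446 and 1335 with YAP/TAZ, ESR1 and both cDNAs, 842 and 1125 between both and each single cDNA, and 1277 for the interaction.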

Other observations

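All 4 TEAD genes and 8 AP-1 subunit genes, the DNA-binding partners at many YAP/TAZ target sites, were measured. The share of all genes called was 7.00% with YAP/TAZ cDNA, 18.9% with ESR1 cDNA, 29.4% with both cDNAs, 24.0% with shLATS1B and 24.8% with shLATS1+2. Of the TEAD genes 0 were called with YAP/TAZ or ESR1 cDNA, 2 were higher and 1 lower with both cDNAs, 3 higher and 1 lower with shLATS1B, and 1 higher and 1 lower with shLATS1+2. Their median changes were 0.0125, 0.0165, 0.15, 0.27 and 0.22 in these 5 comparisons. Of the AP-1 genes 3 were higher and 1 lower with YAP/TAZ cDNA, 4 and 2 with ESR1 cDNA, 5 and 2 with both cDNAs, 5 and 2 with shLATS1B, and 4 and 2 with shLATS1+2. The AP-1 medians were 0.13, 0.21, 0.26, 0.28 and 0.12.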
